A study of Mus musculus with 2 samples.

Results

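The solute carriers are membrane proteins that move nutrients, ions and metabolites across the cell surface and the membranes of organelles. The genes described here are the rows of the deposited table whose symbol has the form Slc, a family number, letters and a member number, such as Slc7a11, with at least 20 estimated reads (counts) in at least 1 library. Of 16463 genes in the table, 285 had such a symbol and 190 of these passed the count minimum, against 11520 of all genes. The members were selected on the counts of both libraries, the same columns that are compared below, so their levels and differences are given as a description.

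Messenger RNA was measured in bone marrow-derived macrophages, which are marrow cells grown for 5 days in medium with 10% serum and, as a source of macrophage colony-stimulating factor, 10% L929 cell supernatant. Both mouse lines are labelled C57BL/6J, and no stimulus was given. The library labelled WT came from mice carrying Lyz2-Cre, a recombinase driven from the lysozyme M gene in myeloid cells. The library labelled TKO came from mice that lack mir-106a~363 and mir-106b~25 and carry a mir-17~92 allele flanked by loxP sites on both chromosomes together with Lyz2-Cre, so Lyz2-Cre was present in both groups and removal of the third cluster depends on that driver. There was 1 library per genotype, with 10877897 counts in WT and 10656431 in TKO, with the number of mice not given in the sources used here. No difference below has a replicate check: intervals are 95% exact binomial (Clopper-Pearson) intervals that cover counting error only, since reads lacking molecular identifiers can be copies of 1 molecule.

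In macrophages these transporters are known for supplying amino acids, glucose and choline to the cell, for moving iron and zinc between the cytosol, the phagosome and the outside, and for setting the pH of organelles. Families are numbered by sequence, and members of 1 family usually share a kind of substrate: SLC2 proteins carry hexoses, SLC7 proteins amino acids, SLC25 proteins link the mitochondrial matrix to the cytosol, SLC30 proteins move zinc out of the cytosol and SLC39 proteins move it in. The genes were sorted by family number, with a few single-gene exceptions, into 11 substrate classes.

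The microRNAs of the 3 clusters bind messenger RNAs through their seed, bases 2 to 8. They fall into 4 seed families, and 1 mature sequence of each is shown with the seed in capitals, because the seeds define the sites searched for in the 3' ends of the transporter messages (RefSeq, GRCm38.p6).
mmu-miR-17-5p: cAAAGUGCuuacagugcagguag
mmu-miR-18a-5p: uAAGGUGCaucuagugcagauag
mmu-miR-19a-3p: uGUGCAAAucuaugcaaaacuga
mmu-miR-92a-3p: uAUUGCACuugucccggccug
The miR-17 family had 6 members in the clusters, the miR-18 and miR-19 families 2 each and the miR-25/92 family 3. The mature microRNAs themselves were not measured in this polyadenylated RNA.

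Most solute carrier messages were at similar levels in both libraries. The log2 ratio of TKO over WT counts was within 0.5 of 0 for 85.3% of the 190 members, and for 83.7% of all genes past the minimum. The median log2 ratio was -0.003 over the members and 0.004 over all genes, and 93 members lay above 0. The size rule used for calls asks for at least a 2-fold difference and a counting interval clear of 0 on the log2 scale. By this rule 2 members were higher in TKO, Slc2a6 and Slc40a1, and 1 was lower, Slc5a3. In the background 2.41% of the 11520 genes were called higher and 2.29% lower, against 1.05% and 0.526% of the members. In either direction the members had 3 calls (1.58%), where the background was 4.7%. The plot of levels in both libraries shows these 3 genes outside the 2-fold lines. Slc36a4, at 16.4 FPKM in WT and 8.1 in TKO, lies just past the lower line there, while its scaled counts fell short of 2-fold.

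**Figure D1:**
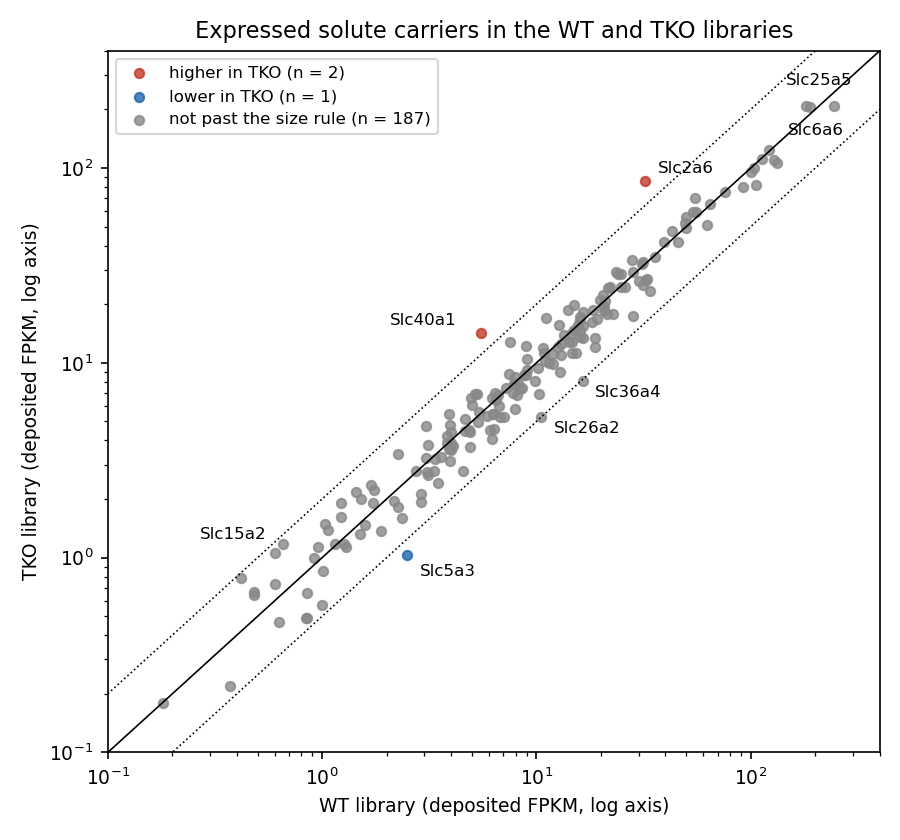
Deposited FPKM (a level scaled for gene length and depth) of the 190 members in the WT library (x axis) and the TKO library (y axis), both on log axes, with 1 point per gene, equality as a solid line and 2-fold differences as dotted lines. Slc2a6 and Slc40a1 lie above the upper dotted line and Slc5a3 below the lower one. Slc36a4, not called by counts, lies just below the lower line in FPKM.

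The labelled cell type was checked with its defining markers. The 8 macrophage markers summed to 119840 counts in WT and 118943 in TKO, and none was called. That sum holds opposite shifts, as the counting interval lay above 0 for 3 markers and below 0 for 4. Log2 ratios ran from -0.43 for Adgre1 (10162 and 7204 counts) to 0.68 for Fcgr1 (1966 and 3019). Over all genes the interval lay above 0 for 21.8% and below 0 for 22.7%. Markers of other cells differed between the libraries. All 9 fibroblast or stroma markers past the minimum lay below 0 and 6 were called lower, with 5685 counts in WT and 1580 in TKO over the 10 listed. Of 6 dendritic cell markers 4 passed the minimum and were called higher, with 547 and 1323 counts over the list. Of these, Dpp4 (8 and 22 counts) and Flt3 (10 and 27) passed only through TKO, where they are high, while Itgax (342 and 843) and Cd24a (177 and 414) passed in both. Zbtb46, with 5 and 3 counts, and Ccr7, with 5 and 14, stayed under the minimum. Of 5 monocyte markers 4 passed the minimum and 2 were higher (1824 and 1762 counts summed). Neutrophil markers summed to 77 and 60 counts, with S100a8 called higher (9 and 21) and Mmp9 lower (52 and 19). T or NK cell markers summed to 74 and 44, with Cd4 called lower (64 and 25). B cell markers summed to 29 and 25 counts and osteoclast markers to 259 and 255, while the 1 measured mast cell marker and the 1 measured erythroid marker had at most 4 counts. The fibroblast and dendritic cell markers thus differed between the same libraries as the transporters below, and their part in those differences was not tested. In bulk RNA, a change in the number of cells of a type and a change of RNA per cell cannot be told apart.

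Slc2a6 (Entrez 227659, chromosome 2, 27021363 to 27027998, GRCm38) encodes GLUT6, a hexose transporter of internal membranes. The WT library held 746 counts of it and the TKO library 1950, at 32.1 and 85.6 FPKM. That is 2.74-fold more in TKO (95% interval 2.51 to 2.98), the highest ratio among the members. Slc2a6 was the most abundant SLC2 gene in both libraries, while the other 4 expressed members of that family together had 33.5 FPKM in WT and 29.6 in TKO. Its annotated 3' UTR of 551 bases held no seed site of the 4 families. Since it is the member with the highest ratio, its promoter is shown, from 250 bases before to 50 after the annotated start (RefSeq, GRCm38.p6, chr2:27027949-27028248, minus strand). Capitals mark matches to CCAAT and to GGGCGG on either strand.
Slc2a6: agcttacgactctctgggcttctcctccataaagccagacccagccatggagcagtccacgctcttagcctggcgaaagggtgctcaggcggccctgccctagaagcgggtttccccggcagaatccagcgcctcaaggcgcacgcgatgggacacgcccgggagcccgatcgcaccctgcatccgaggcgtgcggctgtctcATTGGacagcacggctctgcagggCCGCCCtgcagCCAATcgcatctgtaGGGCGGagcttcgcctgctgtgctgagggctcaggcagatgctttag
This window held CCAAT 2 times and GGGCGG 2 times, counting both strands. Of 32851 RefSeq promoter windows of the same length, 37.4% held CCAAT and 35.7% held GGGCGG. The letters searched for and not found in it were GAAA and GAAA parted by any 2 bases (the interferon-stimulated response element), TTCNNNGAA (the GAS element), GGGA and TCC parted by any 3 bases (an NF-kB motif), TGACNNNGC (the antioxidant response element), CACGTG (the E-box) and TGGAAA (the core of the tonicity element), which were in 3.44%, 8.30%, 4.59%, 12.4%, 7.15% and 21.4% of all windows. Among the 191 windows of the 141 members with a promoter entry, GGGCGG was in 68.6%, CCAAT in 29.8%, TGACNNNGC in 20.4%, CACGTG in 15.2% and TGGAAA in 13.1%. The NF-kB motif was in 6.28% of them, TTCNNNGAA in 5.24% and the interferon-stimulated response element in 1.57%.

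Slc40a1 (Entrez 53945, chromosome 1, 45908068 to 45926523) encodes ferroportin, the iron exporter of the cell surface. Its counts were 204 in WT and 514 in TKO and its FPKM 5.52 and 14.2. The level was 2.64-fold higher in TKO (2.24 to 3.12). Unlike Slc2a6, its 3' UTR of 1338 bases held seed sites: 2 for the miR-17 family and 1 for the miR-18 family. They are shown with 12 bases before and 8 after the matched letters, in capitals, on the sense strand (GENCODE M21, GRCm38).
Slc40a1 miR-18 site, chr1:45908570-45908596, minus strand: agaactgacctgGCACCTTacaagcag
Slc40a1 miR-17 site, chr1:45908305-45908331, minus strand: ttaacttttgatGCACTTTcatggaga
Slc40a1 miR-17 site, chr1:45908267-45908293, minus strand: gcattgctgtgaGCACTTTctttgtcg
The miR-18 site is followed by an A, which makes it an 8mer.

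Slc5a3 (Entrez 53881, chromosome 16, 92058322 to 92087473) encodes a sodium-coupled importer of myo-inositol, an osmolyte and a precursor of inositol lipids. Counts of 300 in WT and 121 in TKO gave 2.49 and 1.03 FPKM. The level was 2.37-fold lower in TKO (1.91 to 2.95). The gene overlaps Mrps6, a mitochondrial ribosomal protein gene on the same strand with 234 and 146 counts (log2 ratio -0.61, interval -0.92 to -0.31), and Gm49711, a protein-coding gene on that strand, so the division of reads between them is uncertain. Its length in the table is 10918 bases, against a median of 3161 over the members. Ratios were lower in longer genes over the whole table, and after a correction for that trend the log2 ratio of Slc5a3 was -0.81 in place of -1.24, short of 2-fold. Its 3' UTR of 8260 bases held 1 seed site, an 8mer for miR-19, shown in the same way.
Slc5a3 miR-19 site, chr16:92082746-92082772, plus strand: tatgttgaaagaTTTGCACaagaccat

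Slc36a4, an amino acid transporter gene, lay at the edge of the rule with 345 and 167 counts. Its log2 ratio was -0.98 (-1.26 to -0.71), or -1.08 with the length trend removed, and the authors' deposited table lists -1.02. Its annotated 3' UTR of 4983 bases held none of the 4 kinds of site, and the length in the table, 1937 bases, is shorter than that UTR, so the correction rests on a length that leaves part of it out. At a log2 ratio of 1 or more and a listed FDR of 0.05 or less, the authors' deposited table marks Slc2a6 and Slc40a1 as higher and Slc5a3 and Slc36a4 as lower. By those columns 2.2% of the 11520 genes were higher and 2.28% lower.

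With the size threshold at 1.5-fold, 8 members were higher and 6 lower. This is 4.21% and 3.16% of the members, where the background was 5.11% and 5.51%. Beside the genes above, the higher ones were Slc15a2, Slc25a22, Slc7a5, Slc38a6, Slc35g1 and Slc25a40. The lower ones were Slc26a2, Slc30a4, Slc44a1 and Slc9a7. The 14 genes come from 7 substrate classes and are described with them. Slc7a5, Slc15a2, Slc44a1, Slc9a7 and Slc30a4 overlap an annotated gene on the opposite strand, and whether the counting used strand is not stated, so reads of such pairs may not have been told apart.

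**Figure D2:**
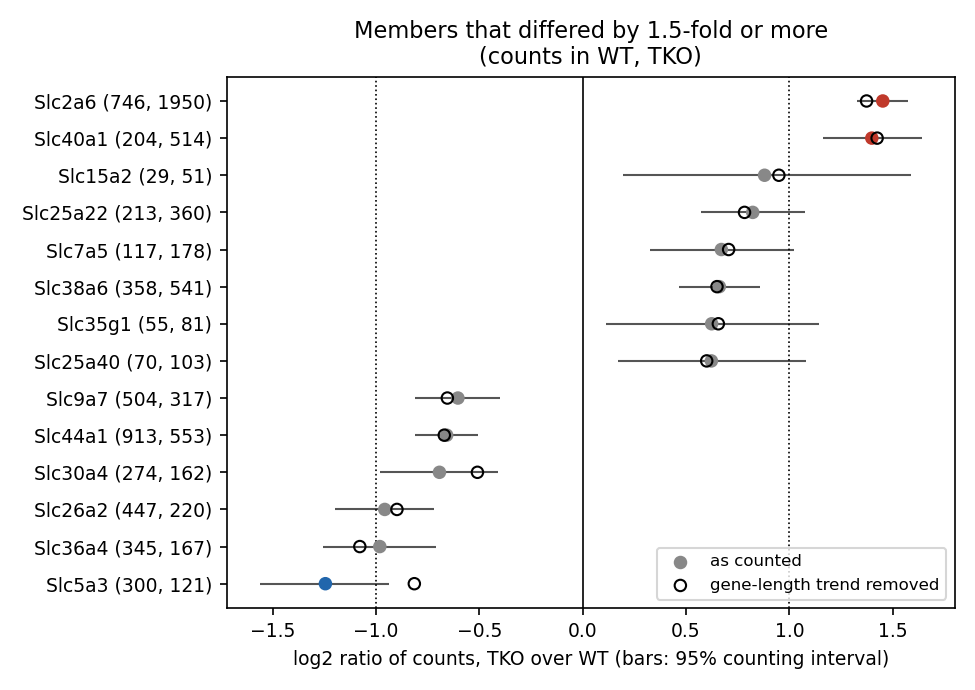
The 14 members past 1.5-fold whose interval excluded 0, with the counts in WT and TKO beside each name. The x axis is the log2 ratio of TKO over WT; filled points are the ratios as counted (red higher and blue lower by the 2-fold rule), bars their 95% counting intervals, and open circles the ratios with the gene-length trend removed, where Slc5a3 moved from -1.24 to -0.81 and Slc36a4 from -0.98 to -1.08.

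Of the 190 members, 183 reached 20 counts in both libraries, 4 in WT alone and 3 in TKO alone. Just outside the minimum were Slc6a9 with 15 counts in WT and 19 in TKO and Slc4a8 with 17 and 15. Just inside were Slc3a1 with 21 and 12 and Slc27a6 with 12 and 22. The other 95 genes with an Slc symbol stayed under it in both libraries and include the insulin-responsive glucose transporter Slc2a4 (2 and 3 counts), the serotonin transporter Slc6a4 (1 and 3) and the zinc transporter of insulin granules Slc30a8 (4 and 1).

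Levels spanned a wide range, with 10 members above 100 FPKM and 92 above 10 FPKM in 1 library, and 11 under 1 FPKM in both. FPKM per gene, which allows genes to be compared, correlated between the libraries with a Spearman coefficient of 0.98 over the 190 members, genes that share the 2 libraries and are not replicates. The 10 most abundant members made up 37.1% of the summed FPKM of the class in WT and 35.9% in TKO. Highest was Slc6a6, the taurine importer, at 245 FPKM in WT and 208 in TKO. It was followed by the mitochondrial carriers Slc25a3 at 189 and 205 FPKM and Slc25a5 at 182 and 209 FPKM. All members together held 1.35% of the counts in WT and 1.27% in TKO, and 0.851% and 0.782% of the summed FPKM. The bar chart of summed levels by class shows amino acid carriers and mitochondrial carriers as the largest groups.

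**Figure D3:**
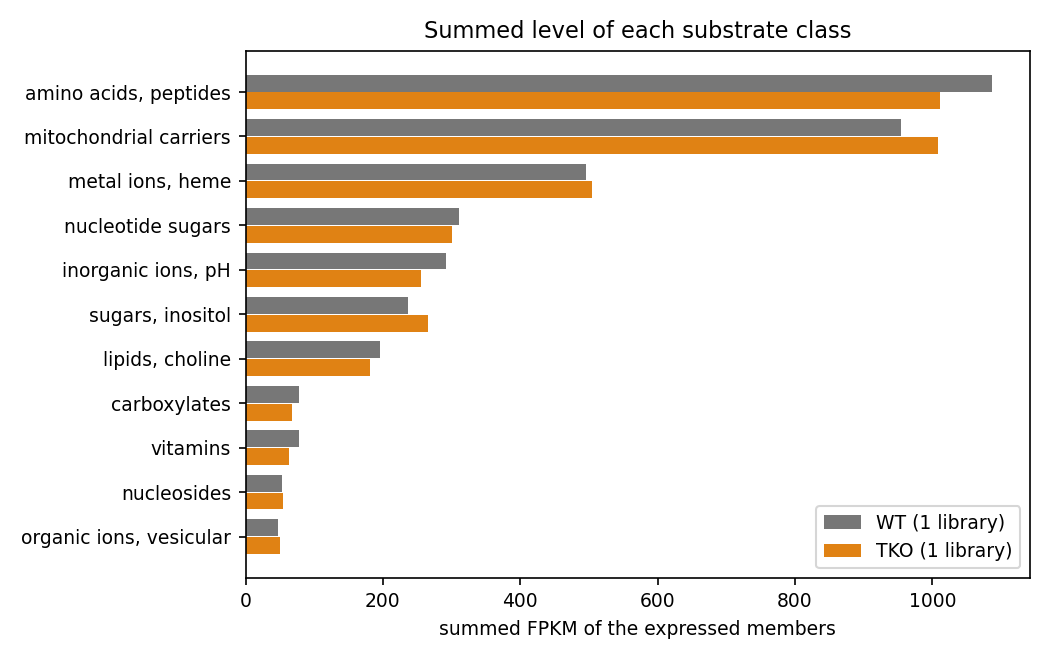
Summed deposited FPKM of the expressed members of each substrate class (bars from 0; grey WT, orange TKO, 1 library each, no error). Amino acid and peptide carriers summed to 1087 FPKM in WT and 1011 in TKO and mitochondrial carriers to 955 and 1009, and the next class, metal ions and heme, to 496 and 504.

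Amino acid, peptide and related amine carriers formed the class with the highest summed level and went both ways. None of the 31 members was called at 2-fold, with a median log2 ratio of -0.040, and 13 lay above 0. The counting interval lay above 0 for 9 members and below 0 for 9, where the background over all genes was 21.8% above and 22.7% below. Slc6a6 had 16624 and 13865 counts, at -0.20 on the log2 scale (-0.23 to -0.16). Slc43a2, which encodes the neutral amino acid transporter LAT4, had 10173 and 7984 counts, at -0.28 (-0.33 to -0.24). Both messages are long, and with the length trend removed they were at 0.04 and -0.01.

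Within this class the subunits of the heteromeric transporters differed from each other. Slc3a2, the heavy chain that carries the light chains to the surface, had 3177 and 3082 counts and a log2 ratio of 0.02 (-0.05 to 0.09). Its light chain Slc7a11, the cystine and glutamate exchanger that feeds glutathione synthesis, had 10227 and 9503 counts, at -0.04 (-0.08 to 0.00), or 0.34 with the length trend removed. Slc7a8, the light chain LAT2, was lower in TKO with 4738 and 3574 counts, at -0.34 (-0.40 to -0.28). Slc7a5, the light chain LAT1 that imports leucine, was higher with 117 and 178 counts, at 0.67 (0.33 to 1.02). Slc7a8 thus exceeded Slc7a5 in both libraries, at 106 against 3.04 FPKM in WT and 81.8 against 4.72 FPKM in TKO. The light chain Slc7a6 had -0.39 (-0.67 to -0.11) and Slc7a7 0.10 with an interval that includes 0. Slc7a2, a carrier of arginine and other cationic amino acids in macrophages, had 541 and 382 counts, at -0.44 (-0.63 to -0.24), or -0.12 with the length trend removed.

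Among the SLC38 neutral amino acid carriers, Slc38a6 was higher with 358 and 541 counts (0.66, 0.47 to 0.86), whereas Slc38a1 and Slc38a2, importers of glutamine and alanine, had -0.23 and -0.25. With the length trend removed Slc38a6 was at 0.65, Slc38a1 at 0.06 and Slc38a2 at -0.13, so Slc38a1 no longer lay below 0. As for Slc36a4, the length of Slc38a6 in the table, 2959 bases, is shorter than its annotated 3' UTR of 3519 bases. The lysosomal arginine sensor gene Slc38a9 had 332 and 309 counts, at -0.04, or 0.33 with the trend removed. Glutamine importer Slc1a5 had 382 and 463 counts, at 0.34 (0.14 to 0.54), and the creatine importer Slc6a8 2388 and 3003 counts, at 0.40 (0.32 to 0.47). Slc36a1, which moves amino acids out of the lysosome, had 0.31 (0.21 to 0.40), in the direction opposite to its relative Slc36a4. The 3 expressed SLC15 carriers of peptides and histidine all lay above 0 as counted, and Slc15a4 was at -0.008 with the length trend removed. Slc15a2 had 29 and 51 counts, at 0.88 (0.19 to 1.59), the endolysosomal Slc15a3 1271 and 1408 counts, at 0.21 (0.10 to 0.32), and Slc15a4, of the same compartment, 735 and 714 counts, at 0.02 with an interval that includes 0.

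Sugar, sugar phosphate and inositol carriers held 2 of the 3 members called, Slc2a6 higher and Slc5a3 lower. The median log2 ratio of the 13 members was -0.089, and 4 lay above 0. The class summed to 236 FPKM in WT and 266 in TKO, and without Slc2a6 to 204 and 181. Slc2a1, which encodes the glucose importer GLUT1, had 412 and 310 counts, at -0.34 (-0.56 to -0.13), and Slc2a3, encoding GLUT3, 202 and 191 counts, at -0.02 with an interval that includes 0. Neither was above WT in TKO, in contrast to Slc2a6. Slc37a2, a sugar phosphate carrier of the endoplasmic reticulum, was the most abundant member at 129 and 109 FPKM. Its log2 ratio was -0.20 (-0.25 to -0.14), or -0.097 with the length trend removed. Slc45a4 had 486 and 331 counts, at -0.49 (-0.69 to -0.28), and Slc50a1, a sugar carrier of the Golgi, 164 and 214, at 0.45 (0.15 to 0.75).

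Metal ion and heme carriers had a median log2 ratio of 0.032 over 26 members, with 16 above 0 and Slc40a1 the 1 member called. The median was -0.004 with library totals, also with log2 of FPKM plus 1. The other iron carriers differed by less. Slc11a1, the NRAMP1 divalent metal carrier of the phagosome membrane, had 1350 and 1456 counts, at 0.17 (0.07 to 0.28). Its relative Slc11a2, which takes iron out of endosomes, had 272 and 273 counts, at 0.07 with an interval that includes 0. Slc48a1, which exports heme from the phagolysosome, was the most abundant member at 91.6 and 80.2 FPKM, and had -0.15 (-0.24 to -0.07). Slc39a14, an importer of zinc, manganese and iron, had 157 and 103 counts, at -0.54 (-0.92 to -0.17). The 2 mitoferrin genes, counted with the mitochondrial carriers, had 0.18 for Slc25a37 with an interval that includes 0 and 0.49 (0.18 to 0.80) for Slc25a28. Of these 7 iron and heme genes the exporter had the highest ratio.

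The zinc carriers of both families centred near 0, with medians of -0.034 over 6 SLC30 members and -0.084 over 11 SLC39 members. Slc30a4, which fills vesicles with zinc, had 274 and 162 counts, at -0.69 (-0.98 to -0.41), and was the lowest of them. Slc39a1, the most abundant zinc importer at 64.5 and 65.0 FPKM, had 0.05. The copper carriers Slc31a1 and Slc31a2 had 0.08 with an interval that includes 0 and 0.45 (0.22 to 0.68). The 3 SLC41 magnesium carriers had ratios from 0.02 to 0.10.

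Mitochondrial carriers were the largest class by number, with 36 members, none called at 2-fold and a median log2 ratio of 0.066. The interval lay above 0 for 8 and below 0 for 5, where the shares over all genes were 21.8% and 22.7%. The genes here are short, with a median length of 2556 bases against 3161 over all members, and with the length trend removed the median was 0.013. The phosphate carrier Slc25a3 had 3077 and 3278 counts, at 0.16 (0.09 to 0.23), and the adenine nucleotide exchanger Slc25a5 2577 and 2908 counts, at 0.24 (0.16 to 0.32), or 0.02 and 0.08 with the trend removed. Its close relative Slc25a4 had 1480 counts in each library, at 0.07 with an interval that includes 0, and reads shared by such similar genes may be divided between them. The highest ratio was that of Slc25a22, a glutamate carrier, with 213 and 360 counts, at 0.82 (0.57 to 1.07). Slc25a40 and Slc25a39, relatives linked to glutathione import, had 0.62 (0.17 to 1.08) on 70 and 103 counts and 0.03 on 1377 and 1346 counts. Slc25a33, a pyrimidine nucleotide carrier, had 25 and 38 counts, at 0.67 with an interval that includes 0. At the other end were the ornithine carrier Slc25a15 at -0.49 (-0.89 to -0.09) and Slc25a36 at -0.42 (-0.61 to -0.22).

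Carriers of inorganic ions, protons and phosphate had a median log2 ratio of -0.13 over 24 members, and 9 lay above 0. The interval lay below 0 for 10 of them and above 0 for none, where the shares over all genes were 22.7% and 21.8%. Their median length was 3741 bases against 3161 over all members, and with the length trend removed the median was -0.012. The most abundant by FPKM was Slc8b1, the mitochondrial sodium and calcium exchanger, with 1522 and 1470 counts, at 0.02 with an interval that includes 0. Slc26a2, the sulfate carrier that supports sulfation of proteoglycans, had 447 and 220 counts, at -0.96 (-1.20 to -0.72), or -0.90 with the trend removed. Its annotated 3' UTR of 5219 bases held no seed site. The length in the table, 3863 bases, is shorter than that UTR, so this correction too rests on a length that leaves part of it out. Slc9a7, a proton exchanger of the Golgi, had 504 and 317 counts, at -0.60 (-0.81 to -0.40), and the endosomal Slc9a9 717 and 501, at -0.45 (-0.62 to -0.28). All 5 expressed SLC12 cation and chloride carriers lay below 0, from -0.53 for Slc12a2 (169 and 112 counts) to -0.03 for Slc12a7, with intervals that exclude 0 for 3 of them, but not all lay below 0 with the length trend removed, where Slc12a7 was at 0.14. The bicarbonate carriers Slc4a7 and Slc4a2 had -0.38 (-0.56 to -0.19) and -0.26 (-0.38 to -0.15). With the length trend removed Slc4a7 was at -0.08, and the sodium and calcium exchanger Slc8a1, at -0.30 as counted, was at 0.30.

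Carriers of nucleotide sugars and acetyl-CoA, which supply glycosylation and acetylation in the Golgi and endoplasmic reticulum, had a median log2 ratio of -0.002 over 21 members and none called. Of these, 95.2% lay within 0.5 of 0. Slc35f6 was the most abundant at 45.7 and 41.8 FPKM, with a log2 ratio of -0.09, and Slc35a4 had -0.25 (-0.38 to -0.11). The lowest was Slc35a3, the carrier of UDP-N-acetylglucosamine, with 569 and 387 counts, at -0.49 (-0.68 to -0.30). The carriers of CMP-sialic acid (Slc35a1) and UDP-galactose (Slc35a2) were at 0.45 (0.09 to 0.81) and 0.31 (0.02 to 0.60). Slc35b3, a carrier of the sulfate donor PAPS, had 104 and 136 counts, at 0.45, and Slc35g1 had 55 and 81 counts, at 0.62 (0.11 to 1.15).

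The smaller classes had no member called at 2-fold. Among 7 carriers of fatty acids, choline and bile acids (median -0.003), the choline transporter Slc44a1 had 913 and 553 counts, at -0.66 (-0.81 to -0.50). Its relative Slc44a2 had 1189 and 1227 counts, at 0.11 with an interval that includes 0. Slc27a1, a fatty acid transport protein, was the most abundant at 103 and 101 FPKM and had a log2 ratio of -0.003. Slc27a4 and Slc10a7 had -0.11 and -0.16, both with intervals that include 0.

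The 7 monocarboxylate and dicarboxylate carriers had a median of -0.15. Slc16a10, a carrier of aromatic amino acids in this family, had 1288 and 974 counts, at -0.34 (-0.46 to -0.22), or -0.18 with the length trend removed. Slc16a3, the lactate exporter MCT4, had 813 and 700 counts, at -0.15 (-0.30 to -0.003), and Slc16a1, which encodes MCT1, 194 and 169 counts, at -0.13. Slc16a6 had -0.24 (-0.45 to -0.04) and Slc16a13 0.31 with an interval that includes 0. Bsg, the chaperone that brings MCT1 and MCT4 to the surface, had 3714 and 4093 counts, at 0.21 (0.14 to 0.27). Emb, a related chaperone, had 2982 and 3443 counts, at 0.27 (0.20 to 0.34). With the length trend removed Bsg was at 0.06 and Emb at 0.23.

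Of the 8 vitamin and cofactor carriers (median -0.13), the ascorbate importer Slc23a2 was the most abundant by FPKM. It had 2427 and 1643 counts, at -0.50 (-0.59 to -0.41), or -0.25 with the length trend removed. Slc46a1, the folate carrier, had -0.32 with an interval that includes 0, Slc46a3 -0.12, and the riboflavin carrier Slc52a2 0.43 (0.12 to 0.75). Among 4 nucleoside and nucleobase carriers (median 0.077), the nucleoside importer Slc28a2 had 166 and 229 counts, at 0.53 (0.24 to 0.83). The lysosomal Slc29a3 had 1267 and 1376 counts, at 0.18 (0.07 to 0.30), or 0.36 with the length trend removed. Slc29a1, at the surface, had 423 and 361 counts, at -0.16 with an interval that includes 0.

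The 13 organic ion and vesicular carriers had the highest class median, 0.27, on the lowest levels, a median of 1.03 FPKM in WT and 1.37 in TKO. That median was 0.14 with log2 of FPKM plus 1 and 0.10 over the 3 members with at least 100 counts. The interval excluded 0 for 1 of them, Slc18b1, at 0.54 on 52 and 72 counts. Slc17a5, the sialic acid exporter of the lysosome, was the most abundant at 28.1 and 29.4 FPKM with a log2 ratio of 0.10, followed by Slc22a4 at -0.06. Slc22a17 had 15 and 26 counts and Slc18a1 34 and 19, and their intervals, like that of Slc17a7 on 34 and 48 counts, include 0. The strip plot by class shows this spread against the narrow spread of the nucleotide sugar carriers.

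**Figure D4:**
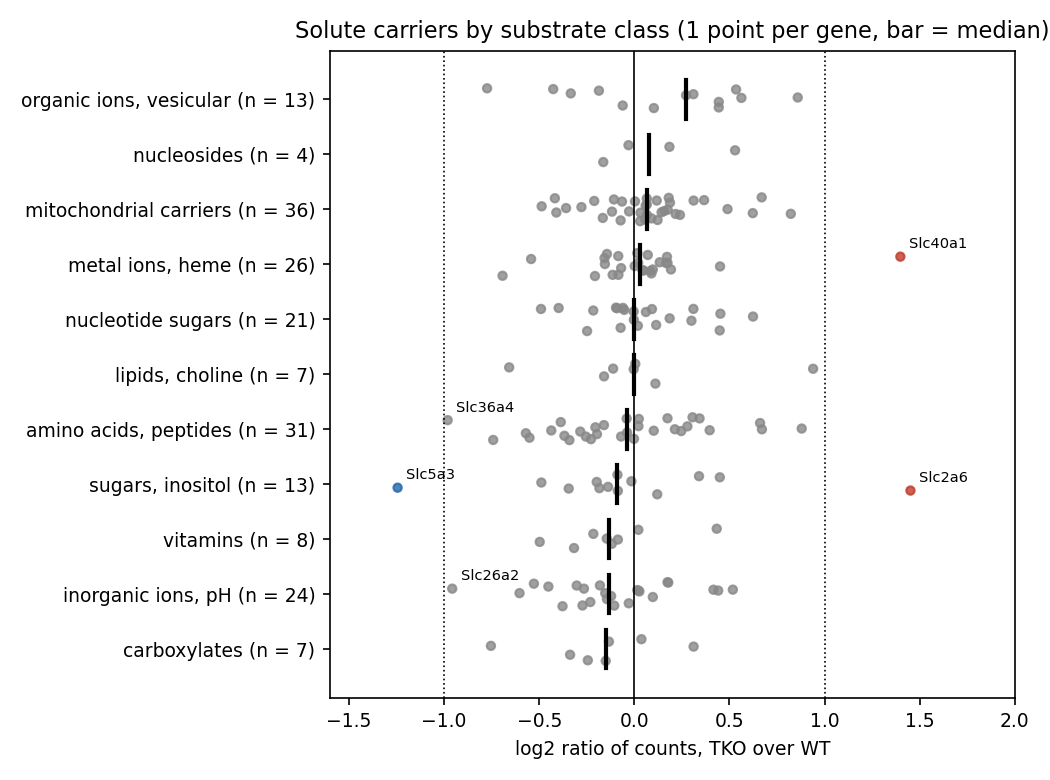
Log2 ratio of counts, TKO over WT (x axis), for the 190 members in their 11 substrate classes (rows, with n), 1 point per gene; black bars are class medians and dotted lines mark 2-fold. The medians ran from -0.15 for carboxylate carriers to 0.27 for organic ion and vesicular carriers, and Slc2a6, Slc40a1 and Slc5a3 are the 3 points past the dotted lines.

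The ratio moved with gene length among the members. The Spearman coefficient of the log2 ratio with length was -0.35 over the 190 members and -0.45 over all 11520 genes, as a description of genes that share 2 libraries. The 64 shortest members had a median log2 ratio of 0.094, the 62 in the middle -0.001 and the 64 longest -0.11. Genes of the same length ranges among all tested had medians of 0.14, 0.001 and -0.17. With the trend removed the 3 sets of members had medians of 0.014, -0.020 and 0.054. The class medians with the trend removed were -0.012 in place of -0.13 for inorganic ions, 0.013 in place of 0.066 for mitochondrial carriers, 0.31 in place of 0.27 for organic ion and vesicular carriers and -0.16 in place of -0.13 for vitamin carriers. For amino acid carriers the median turned from -0.040 to 0.037 and for nucleotide sugar carriers from -0.002 to 0.045. It kept its sign in the other 5 classes, at 0.064 for metal ions, -0.097 for sugars, -0.16 for carboxylates, 0.14 for nucleosides and -0.042 for lipids.

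**Figure D5:**
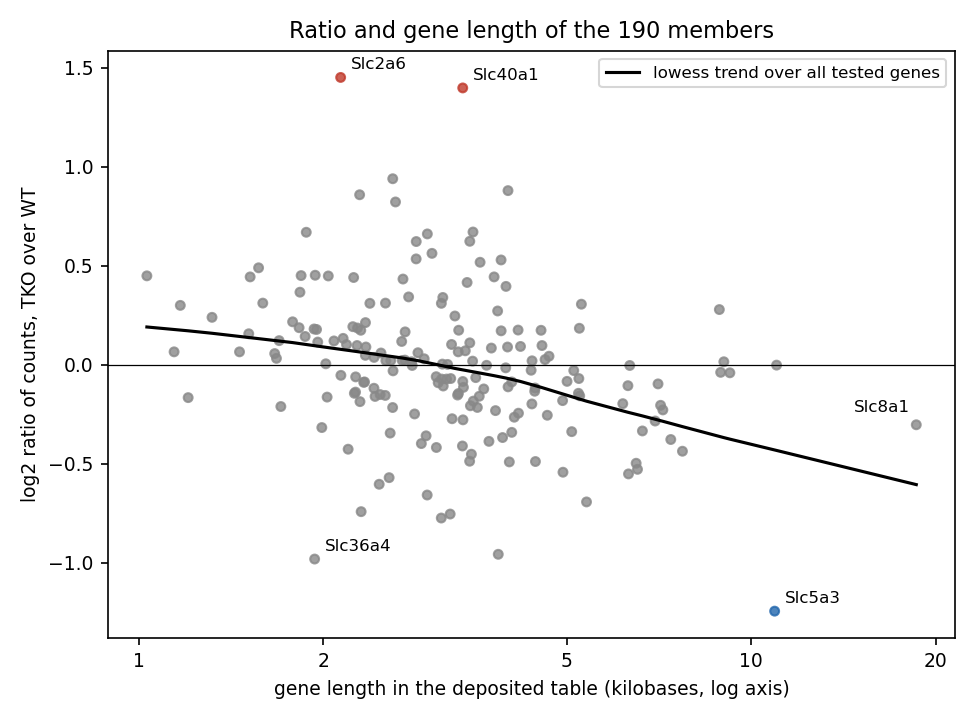
Log2 ratio of counts, TKO over WT (y axis), against gene length in kilobases (x axis, log scale) for the 190 members; the line is the lowess trend fitted over all 11520 genes. The trend falls with length, Slc5a3 lies below it by 0.81, and Slc2a6 and Slc40a1 lie above it by 1.37 and 1.42.

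Seed sites were looked for as the 7 letters opposite the seed, GCACTTT for miR-17, GCACCTT for miR-18, TTTGCAC for miR-19 and GTGCAAT for miR-25/92, in the longest annotated 3' UTR. A 3' UTR was found for 189 members, and 80 of them (42.3%) held at least 1 site, against 35.8% of 11056 genes. Members with a site had a median log2 ratio of -0.067 and those without 0.022; over all genes the medians were -0.053 and 0.036. Members with a site were longer, at a median of 3714 against 2720 bases, and with the length trend removed their median was 0.034 against 0.002. Of the 36 members with a miR-17 site 1 was called higher, Slc40a1, and 0 lower, where over all genes it was 21 and 45 of 1708. The medians with and without a site were -0.002 and -0.003 over the members, and -0.060 and 0.013 over all genes. Medians of the members with a miR-18, miR-19 or miR-25/92 site were -0.11, -0.007 and -0.14, over 29, 24 and 17 genes. Over all genes with such a site they were -0.083, -0.068 and -0.090. With the length trend removed the 4 families, from miR-17 to miR-25/92, had 0.11, 0.031, 0.10 and -0.017 over the members with a site. All genes with a site had 0.017, -0.005, 0.005 and 0.015. A match is not evidence that the site is used.

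Genes that work beside the transporters were described from 3 lists of names. Of 36 solute carriers without an Slc symbol past the count minimum, 1 was called higher and 1 lower. The background over all genes, 2.41% higher and 2.29% lower, applies to all 3 lists. Slco3a1, an organic anion transporter, had 35 and 93 counts, 2.78-fold more in TKO, and its relative Slco2b1 306 and 110 counts, 2.66-fold fewer. The median of the list was 0.016, and Ucp2, a carrier of the SLC25 family with 573 and 659 FPKM, was the most abundant, at 0.24. Of 19 partners and kinases of transporters past the minimum none was higher and 1 was lower, Nedd4, a ubiquitin ligase that removes transporters from the surface. Nedd4 had 312 and 131 counts, 2.28-fold fewer in TKO. Its log2 ratio was -1.19, or -0.99 with the length trend removed, short of 2-fold. The kinase gene Wnk1, which acts on SLC12 carriers, had 5540 and 3532 counts, at -0.58, or -0.19 with the length trend removed. Of 28 ABC transporters, the ATP-driven pumps, 1 was higher and 1 lower (median -0.084): Tap1, a peptide pump of antigen presentation, was 2.03-fold higher and Abca9 2.43-fold lower. The most abundant of the pumps was Abcc3, at 62.0 FPKM in WT and 46.2 in TKO.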

How the data were processed

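The deposited table holds 1 row per gene for 1 WT and 1 TKO library of unstimulated macrophages, and 0 of its value columns lacked a matching sample. The submitters' processing notes name mm10, RSEM 1.2.12, HISAT2 2.0.4 and Bowtie2 2.2.5 without their roles, with annotation, strand and filters not given in the sources used here. In unit, the authors' expected counts are estimated reads per gene. The authors' FPKM is scaled for length and depth, per the file headers. The authors' log2 ratio is that of the FPKM columns. The authors' p-value rests on an unnamed test, and their deposited FDR, above 1 in 713 rows, was read as a score.

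Counts were rounded and scaled with TMM factors of edgeR 4.0.16 in R 4.3.3, which were 1.01 (WT) and 0.988 (TKO). The minimum of 20 was applied before rounding. The size rule asked for that minimum, a log2 ratio of 1 or more in size and an interval excluding 0; a count of 0 was set to 3. No test was possible with a single library of each genotype. The lowess trend had a span of 0.3 over log2 length. Annotation came from GENCODE M21 (GRCm38, the assembly of mm10), matched by Entrez identifier for all 190 members. The interval and trend scripts were tested on simulated data.

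Named were all members called, in each class the 3 with the largest absolute log2 ratio at 1 FPKM or more and the 2 most abundant, and in the partner lists those called and the most abundant; other members were named after their values were seen, to describe a family or function. Members, classes, lists and alternatives were chosen with earlier results of these data known. Alternatives were library totals, DESeq2 1.42.0 size factors, thresholds of 1.5-fold and 4-fold, a count minimum of 100 or none, log2 of FPKM plus 1, the length trend removed, and 8mer sites. Where no minimum was set, genes without a count in 1 of the libraries were still left out. Calls with log2 of FPKM plus 1 used the size of the difference alone, without an interval. They covered the 179 members with at least 1 FPKM in 1 library.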

Additional observations from a re-analysis of the deposited data

How the results depend on the processing

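Slc2a6 and Slc40a1 were called higher under all scalings, FPKM, both other count minimums and the length correction. For FPKM the call rested on the 2-fold difference alone, with no counting interval. Members called higher numbered 8 at 1.5-fold and 0 at 4-fold, and lower 6 and 0. With library totals or DESeq2 size factors 2 were lower, as Slc36a4 joined Slc5a3. With log2 of FPKM plus 1, which shrinks low values, 0 were lower and Slc5a3 was at -0.78. With the length trend removed 1 was lower, Slc36a4 in place of Slc5a3. With no count minimum Slc25a47, on 3 and 12 counts, was also called higher. The median of members with a seed site was 0.034 with the length trend removed, in place of -0.067. For 8mer sites alone, in 37 members, it was 0.037, and the cause of this was not tested. Over all genes the median was -0.052 for 8mer sites alone and -0.053 for any site. Of the 50 members named by rule, 47 kept their sign with the length trend removed and 49 under each other scaling and FPKM. Members named after their values were seen are not in these numbers. Some of them changed sign with the length trend removed, among them Slc7a11, Slc38a1 and Slc8a1. Among the 50, the log2 ratio moved by up to 0.43 with the length trend removed and by up to 0.49 with log2 of FPKM plus 1. Slc8a1, outside the 50, moved from -0.30 to 0.30 with the length trend removed. No paired analysis was possible because each genotype had 1 library. Depth limits the members near 20 counts: the interval of Slc15a2, on 29 and 51 counts, ran from 1.15-fold to 3.01-fold.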
